A study of Mus musculus with 2 samples.

Results

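The transcripts described here encode the subunits of oxidative phosphorylation, the machinery of the inner mitochondrial membrane that makes ATP. They were chosen by gene symbol in a table of FPKM values (fragments per kilobase of transcript, relative to each library's mapped total) for mouse cells labelled primary microglia. The symbols taken were those starting with Nduf, Uqcr, Cox4 to Cox8, Atp5 or mt-, together with Sdha, Sdhb, Sdhc, Sdhd, Cyc1 and Cycs, and without pseudogenes and the Ndufaf assembly factors. This gave 101 of the 23466 rows, of which 88 were encoded in the nucleus and 13 on the mitochondrial genome. The study used 2 libraries, 1 titled DMSO (the control) and 1 titled with both agents of the treatment, iron at 1600 μM and RSL3 at 1 μM. RSL3 is known to inactivate GPX4, a peroxidase that protects membrane lipids, and iron with RSL3 is a known trigger of ferroptosis, a form of cell death driven by lipid peroxidation. The mouse strain, the age of the animals, the iron salt and the hours of exposure are not given in the labels used here.

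Complexes I and II pass electrons from NADH and succinate to ubiquinone, complex III passes them on to cytochrome c, and complex IV passes them to oxygen. Complex V, the ATP synthase, uses the proton gradient that complexes I, III and IV build. Electrons travel over flavins, iron-sulfur clusters, haems and copper, and complexes I, III, IV and V combine nuclear subunits with subunits made inside the mitochondrion, whereas complex II is wholly nuclear-encoded.

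With 1 library per condition no difference has an error, a test or a p-value, and all values describe these 2 libraries. Genes under 1 FPKM in both libraries were left out of counts and medians, which kept 95 of the 101 members and 11771 of all rows. The 6 members left out were Cox6a2, Cox7a1, Cox7b2, Cox8b, Cox8c and a second row named Atp5o. A log2 change is log2(FPKM + 1) in the treated library minus that in the control, a scale that understates the change of weak genes, and a gene was called only past 2-fold. The median change of all measured genes was -0.38 (middle 50% from -0.73 to 0.01). It became -0.19 when the libraries were centred on their abundant genes and -0.51 with equal totals, so the sign of a small change depends on the scale. The depth could be judged only from steps among low values. If 1 step is 1 fragment, 1 FPKM on 1000 bases was 16.8 control fragments and 18.3 treated ones.

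The label of the cells was not borne out by their defining markers. Among 17 microglial and myeloid genes, 8 did not reach 1 FPKM in either library, and Cx3cr1, P2ry13 and Aif1 were listed at 0. Tmem119, which other cells also express, was at 59.1 and 26.1 FPKM. All 12 fibroblast and mural genes reached 10 FPKM in both libraries, with sums of 6701 and 6536 FPKM. Under 1 FPKM in both libraries were 2 of 4 astrocyte, 3 of 4 oligodendrocyte, 2 of 3 neuronal and all 3 endothelial genes. In bulk RNA, a changed share of cells and a changed amount per cell cannot be told apart, and the part of these markers in the results below was not tested.

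None of the 95 measured members passed 2-fold in either direction, beside 16% of all measured genes (4.25% higher and 11.8% lower). The 2 most abundant deciles of all genes hold 29 and 32 of the 82 measured nuclear members. In these deciles only 2.12% and 3.31% of genes were 2-fold lower, and 9.6% and 5.27% were 2-fold higher. Most nuclear members thus lie where few genes were 2-fold lower. At 1.5-fold, 2 members were higher and 6 lower, where 8.28% and 34.7% of all measured genes were higher and lower. The median change of all measured members was -0.04, from a lowest value of -0.998 to a highest of 0.97. Scaling took a few members past 2-fold, with mt-Co1 higher after centring, and Ndufs1, Sdha and Atp5s lower with equal totals. The members were not spread evenly within this range. On the deposited scale nearly all complex IV transcripts of the nucleus lay above 0 (7 of 15 with equal totals) and all complex II transcripts below it. Complex I and III transcripts of the nucleus lay mostly below it (18 of 36 and 5 of 9 after centring), and complex V transcripts on both sides.

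**Figure D1:**
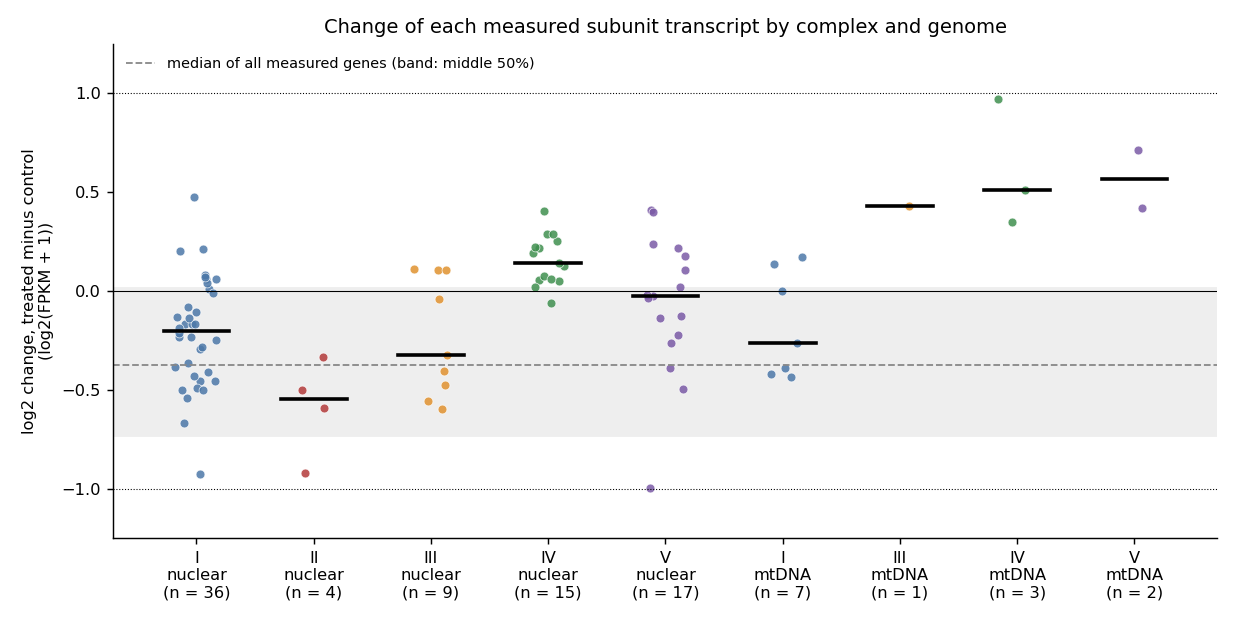
Change of each measured subunit transcript (points, treated minus control on the log2(FPKM + 1) scale) by complex and by the genome that encodes it, with the median of each set as a black line. The dashed line is the median of all 11771 measured genes, the grey band their middle 50% and the dotted lines 2-fold. Nuclear complex IV transcripts sit around 0.14 (-0.01 with equal totals), complex II transcripts around -0.55, and no point lies past 2-fold.

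Nuclear and mitochondrial members differed in their share of the transcriptome. The 88 nuclear rows summed to 5214 FPKM with DMSO and 5068 FPKM with iron and RSL3, or 1.35% and 1.18% of all FPKM. The 13 mitochondrial rows summed to 18581 and 25844 FPKM, or 4.82% and 6.02%. Within each library, which no scaling touches, the mitochondrial sum was thus 3.56 times the nuclear sum in the control and 5.10 times in the treated library. The gene mt-Co1 carried much of that difference, since the ratio without it was 2.73 and 3.40. The median change was -0.09 over the 82 measured nuclear members and 0.17 over the 13 mitochondrial ones. The nuclear median turned to 0.12 after centring, and the mitochondrial one became 0.02 with equal totals.

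Complex I, the NADH dehydrogenase, had 36 measured nuclear subunits, all between 8.30 and 91.4 FPKM. Of these, 27 were lower and 9 higher in the treated library, a share near the 74.3% of all measured genes that were lower. Their median of -0.20 became 0.01 after centring, where 18 were lower and 18 higher. The 7 nuclear core subunits, which carry or surround the redox centres and are shared with bacteria, had a median of -0.41, and 6 of them were lower. The 29 accessory subunits had a median of -0.17, and 21 were lower. Set against genes of the same length decile, these medians were -0.15 and 0.05, and after centring -0.20 and 0.05.

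Ndufs1, the large iron-sulfur subunit of the NADH-oxidising module (chromosome 1, 63143596 to 63176833, GRCm38), was at 35.6 FPKM with DMSO and 18.2 FPKM with iron and RSL3, a log2 change of -0.93. It had the lowest value of complex I, and 9 bases of its annotated span overlap the oppositely oriented gene Eef1b2. Ndufv2, an iron-sulfur subunit of the same module, was at 29.3 and 18.1 FPKM (-0.67). Ndufv1, which binds the flavin where NADH is oxidised, was at 40.0 and 28.9 FPKM (-0.46). These 3 members of the electron input module were all lower in the treated library under each scale tried. Ndufs8, an iron-sulfur subunit on the way to ubiquinone, went the other way, at 27.6 and 32.2 FPKM (0.21).

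The most abundant accessory subunits of complex I differed little. Ndufa7 was at 79.2 and 91.4 FPKM (0.20), and Ndufa11, a membrane subunit, was at 57.9 and 58.4 FPKM (0.01, negative with equal totals). Ndufa2, an accessory subunit of the NADH-oxidising module, had the highest value of the complex, at 37.3 FPKM with DMSO and 52.3 FPKM with iron and RSL3 (0.47). It thus opposed the core subunits of its own module. Ndufb3, a small membrane-arm subunit, had the lowest value among the accessory subunits, at 22.0 and 14.8 FPKM (-0.54).

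**Figure D2:**
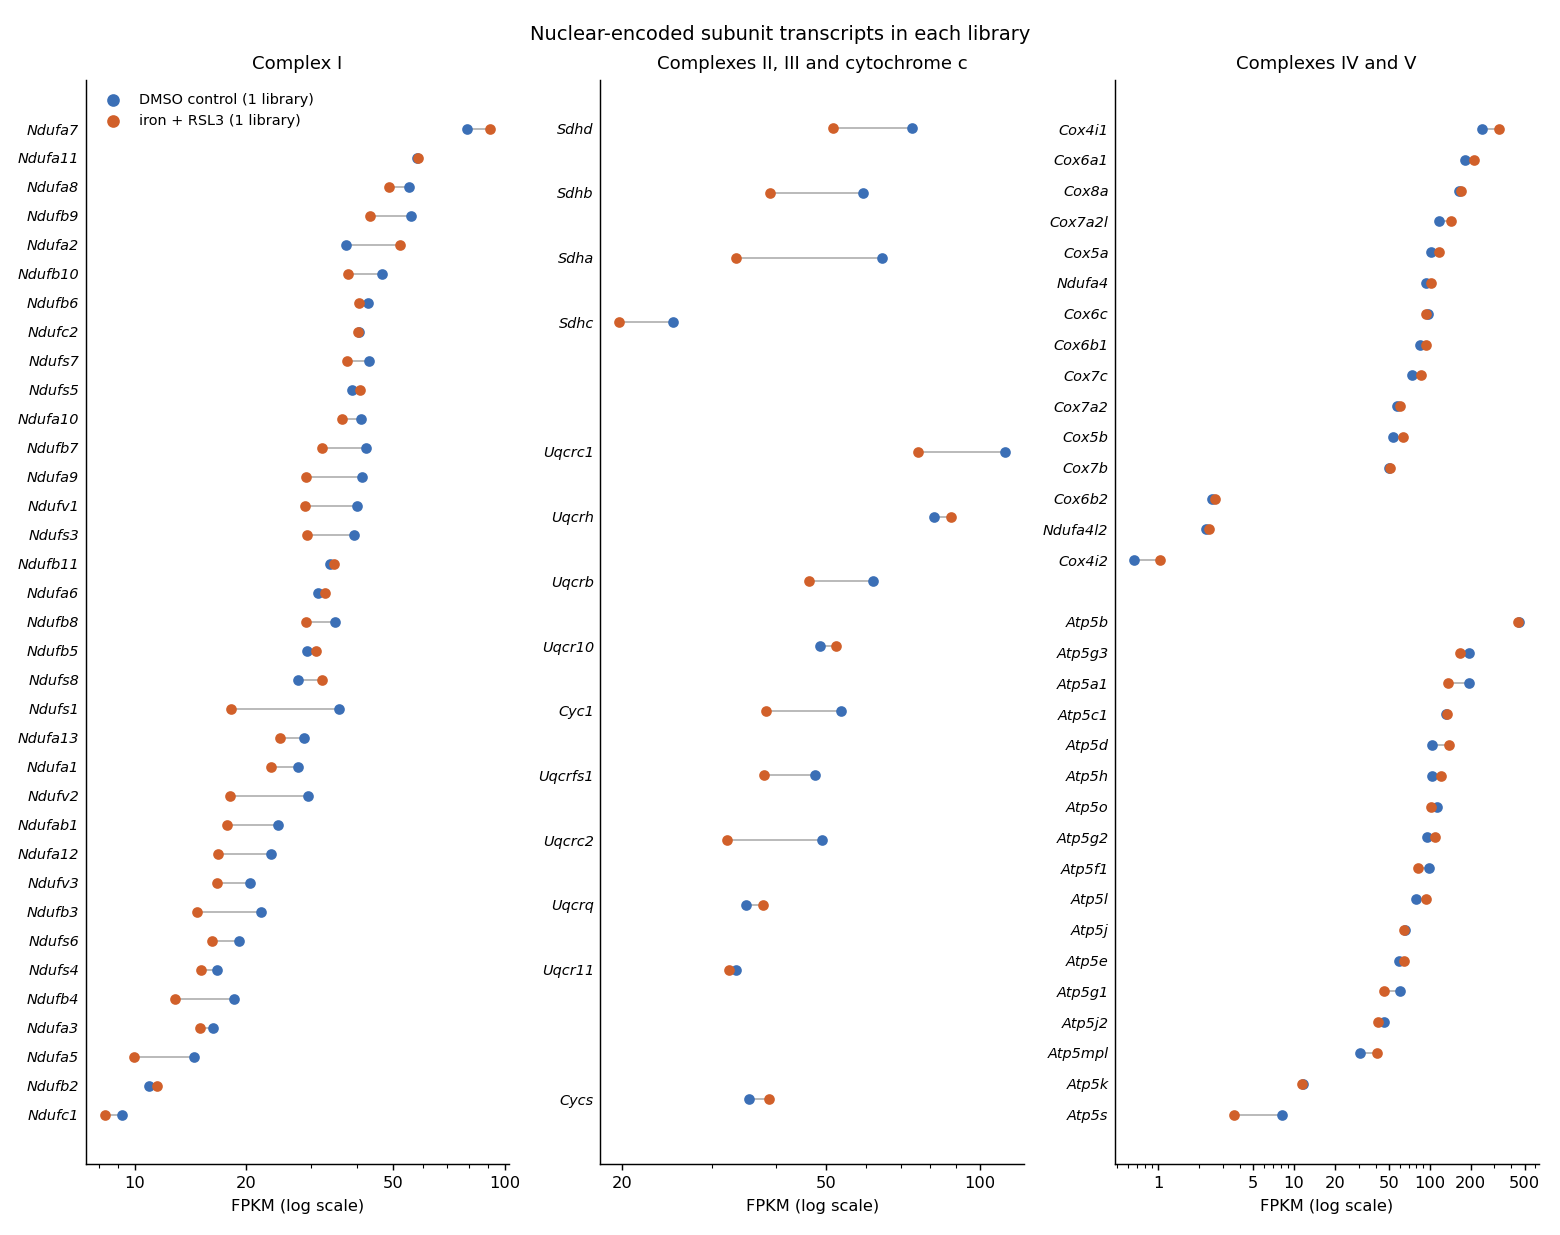
FPKM (log scale, with a different range in each panel) of the measured nuclear members, with 1 complex I gene not shown, in the control library (blue) and the treated library (orange), ordered by abundance within each complex. Orange lies left of blue for all complex II genes and for Ndufs1, and right of blue for 14 of the 15 measured complex IV genes.

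Complex II, the succinate dehydrogenase shared with the citric acid cycle, was lower in the treated library in all 4 of its subunits. Sdha, the flavoprotein that oxidises succinate (chromosome 13, 74322254 to 74350280), was at 64.2 FPKM with DMSO and 33.4 FPKM with iron and RSL3, a log2 change of -0.92. Sdhb, the iron-sulfur subunit, was at 59.2 and 38.9 FPKM (-0.59). Both catalytic subunits were therefore below the median change of all genes. Sdhd and Sdhc, the membrane anchors around haem and the ubiquinone site, were at 73.5 and 51.7 FPKM (-0.50) and at 25.2 and 19.8 FPKM (-0.33). The complex summed to 0.120 times the nuclear complex V sum in the control and to 0.0797 times in the treated library. The median of -0.55 stayed negative under each alternative, from -0.70 with equal totals to -0.33 after centring. Sdhc alone turned positive, at 0.14, when set against genes of its own length.

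Complex III, which oxidises ubiquinol, divided by the role of its nuclear subunits. The 4 large or redox-active subunits were all lower in the treated library, with a median of -0.52. Uqcrc1 and Uqcrc2, the core proteins related to the mitochondrial processing peptidase, were at 111.8 and 75.6 FPKM (-0.56) and at 49.2 and 32.1 FPKM (-0.60). Cyc1, which encodes cytochrome c1, was at 53.6 and 38.2 FPKM (-0.48), and Uqcrfs1, the Rieske iron-sulfur protein, was at 47.7 and 37.8 FPKM (-0.33). The 5 small subunits had a median of 0.10 (-0.05 with equal totals), with 3 above 0. Among them Uqcrh, the hinge protein that helps cytochrome c dock, was at 81.2 and 87.8 FPKM (0.11, and -0.04 with equal totals). Uqcrb, another small subunit and the lowest of them, was at 61.7 and 46.3 FPKM (-0.41), so it lay below the redox subunit Uqcrfs1. The large and small sets also differ in transcript length, with medians of 1586.5 and 535 bases. Against genes of their own length, their median changes were -0.22 and 0.24. The sum of the large subunits was 1.01 times that of the small ones in the control and 0.716 times in the treated library. Cytochrome c itself, encoded by Cycs, was at 35.5 and 38.8 FPKM (0.13, and -0.03 with equal totals).

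Complex IV, cytochrome c oxidase, was the one complex whose nuclear subunits were almost all higher on the deposited scale. Of 15 measured nuclear members, which include Ndufa4 because its protein belongs to this complex despite its name, 14 had a change above 0, beside 25.7% of all measured genes, and 7 of 15 did with equal totals. Without the 3 weak isoforms, of which Cox4i2 reached 1 FPKM only in the treated library, 11 of 12 were above 0, and 6 were with equal totals. The median of 0.14 became -0.01 with equal totals and 0.36 after centring, and all 15 lay above the median change of all genes. Set against genes of the same abundance decile, the median was 0.17 and 13 of 15 lay above 0. The most abundant decile of all genes itself had a median change of 0.06. Cox4i1, a regulatory subunit (chromosome 8, 120668222 to 120674207), was at 244.3 FPKM with DMSO and 324.1 FPKM with iron and RSL3, a log2 change of 0.41 and the highest of its nuclear genes. Cox7a2l, a factor that joins complexes III and IV into supercomplexes, was at 116.5 and 142.5 FPKM (0.29). Cox6a1 was at 183.2 and 212.9 FPKM (0.22), Ndufa4 at 93.5 and 103.1 FPKM (0.14, and -0.01 with equal totals) and Cox8a at 163.8 and 169.7 FPKM (0.05, and -0.10 with equal totals). Cox7a2 was at 57.4 and 60.6 FPKM (0.08, and -0.08 with equal totals). The single member with a negative value was Cox6c, at 97.6 and 93.4 FPKM (-0.06, positive after centring). Summed over nuclear subunits, complex IV stood at 1.06 times complex I in the control and 1.37 times in the treated library.

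The tissue-restricted and condition-dependent isoforms of complex IV were weak or absent. Heart and muscle isoforms Cox6a2, Cox7a1 and Cox8b were at most at 0.43 FPKM, and Cox7b2, Cox8b and Cox8c, of which Cox7b2 and Cox8c are known from testis, were listed at 0 in both libraries. Cox6b2, another testis isoform, was at 2.50 and 2.64 FPKM (0.06, and -0.06 with equal totals). Both isoforms known to be induced in low oxygen stayed weak. Cox4i2 was at 0.67 FPKM with DMSO and 1.04 FPKM with iron and RSL3, against 244.3 and 324.1 FPKM for Cox4i1. Ndufa4l2 was at 2.24 and 2.38 FPKM (0.06, and -0.05 with equal totals), and 32 bases of its span overlap the oppositely oriented Shmt2, at 58.4 and 64.0 FPKM.

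Complex V had the highest summed level of the nuclear complexes and members on both sides of 0, with a median of -0.02 over 17 measured genes (0.19 after centring). Atp5b, the catalytic beta subunit, was at 457.3 and 449.6 FPKM (-0.02, and 0.19 after centring). Its partner Atp5a1, the alpha subunit that is needed in equal number, was at 193.5 and 136.9 FPKM (-0.50). The alpha and beta transcripts thus had unlike values, and Atp5d, a subunit of the central stalk, had the highest change of its nuclear genes, at 104.0 and 138.8 FPKM (0.41). In the proton-carrying c ring, 3 genes encode one mature protein with different import sequences. Atp5g3 was at 193.6 and 166.1 FPKM (-0.22), Atp5g2 at 96.3 and 108.9 FPKM (0.17) and Atp5g1 at 60.3 and 45.7 FPKM (-0.39). Their order of abundance was the same in both libraries. Atp5s, a coupling factor that is not part of the enzyme core, had the lowest change of all members, at 8.23 and 3.62 FPKM (-0.998). It passed 2-fold with a pseudocount of 0.1 FPKM (-1.16).

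Transcript length went along with these differences. Across the 82 measured nuclear members, the change had a Spearman rho of -0.47 with annotated transcript length, against -0.12 across 11354 measured genes with a length. Members share their libraries and are not replicates, so this is a description. Members under 600 bases had a median of 0.06 (n = 18) beside 0.11 for the 150 measured genes of that length. Those from 600 to under 1000 bases had a median of -0.02 (n = 29) beside -0.11 for 566 genes. Those from 1000 to under 2000 bases had one of -0.28 (n = 26) beside -0.31 for 2384 genes. Those of 2000 bases or more had a median of -0.39 (n = 9) beside -0.43 for 8254 genes. The 2 most abundant deciles of all genes hold 61 of the 82 nuclear members. With the most abundant decile first, the members there had medians of 0.11 and -0.17, beside 0.06 and -0.24 for all genes. As a whole the nuclear subunits lay slightly above other genes of their length, by a median of 0.12, with 54 of 82 above 0. Against genes of like abundance the median was 0.07, with 46 of 82 above 0. Set against genes of their own length, complex II still had a median of -0.33 and complex IV one of 0.28, while complexes I and III stood at 0.02 and -0.02. Set against genes of like abundance, the nuclear medians of complexes I to V were 0.07, -0.45, -0.09, 0.17 and -0.04. Whether length itself contributes to the difference between complexes was not tested.

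**Figure D3:**
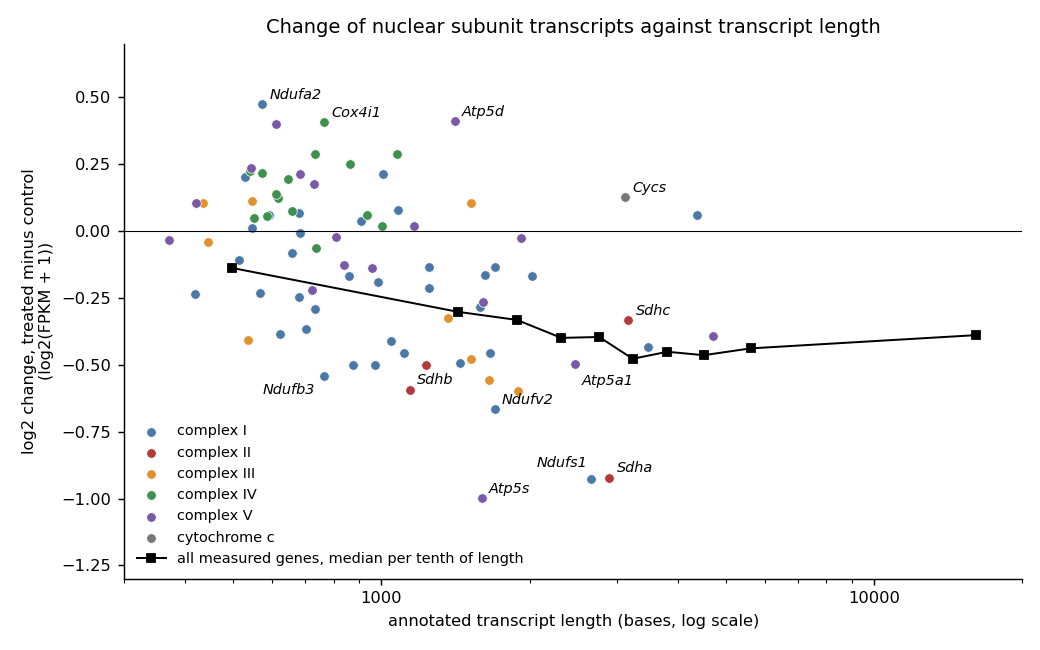
Log2 change (treated minus control, log2(FPKM + 1)) of the 82 measured nuclear members against the length of their annotated transcript in bases (log scale), coloured by complex. Black squares give the median of all measured genes in each decile of length, placed at the middle of the decile on the log axis. Sdha and Ndufs1 lie at -0.92 and -0.93, below the median of other long transcripts, and most complex IV genes lie above the line at short lengths.

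The 13 mitochondrial protein genes are read from long precursor RNAs that are cut into messengers, mostly at the transfer RNAs between them. They separated by complex. All 3 complex IV genes, both complex V genes and mt-Cytb were higher in the treated library under each scale tried, whereas the 7 complex I genes had a median of -0.26 and mt-Nd1 and mt-Nd4 alone were above 0 (mt-Nd4 alone with equal totals, and mt-Nd2 as well after centring). Summed, the complex IV genes stood at 1.20 times the complex I genes in the control and at 2.17 times in the treated library. Nuclear-genome copies of mitochondrial DNA can share reads with these genes, and how such reads were assigned is not given in the sources used here.

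The gene mt-Co1, the catalytic subunit of complex IV (mitochondrial genome, 5328 to 6872), was at 4373 FPKM with DMSO and 8591 FPKM with iron and RSL3, 1.96 times as high (0.97). It was the highest value of the whole table in both libraries and made up 23.5% and 33.2% of the mitochondrial sum. The copper-binding subunit mt-Co2 was at 1675 and 2388 FPKM (0.51), and mt-Co3 was at 1378 and 1754 FPKM (0.35). The membrane subunit of ATP synthase through which protons pass, mt-Atp6, was at 1841 and 3024 FPKM (0.72), and mt-Atp8 was at 1755 and 2350 FPKM (0.42). Cytochrome b, the only mitochondrial subunit of complex III, was at 1392 and 1879 FPKM (0.43).

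Complex I genes of the mitochondrial genome lay on both sides of 0. The membrane-arm subunit genes mt-Nd1 and mt-Nd2 were at 1736 and 1909 FPKM (0.14, and -0.02 with equal totals) and at 946.2 and 945.2 FPKM (0.999 times, and 0.22 after centring). The proton-pumping subunit gene mt-Nd4 was at 997.3 and 1125 FPKM (0.17). In contrast mt-Nd4l was at 646.2 and 477.2 FPKM (-0.44), and mt-Nd3, the weakest of the 13, was at 147.3 and 122.7 FPKM (-0.26). The distal pump gene mt-Nd5 was at 910.7 and 681.4 FPKM (-0.42), and mt-Nd6, the only protein gene on the other strand, was at 783.4 and 598.0 FPKM (-0.39). These last 4 stayed below 0 under each scale tried. The library protocol names no step that keeps strand, so fragments of mt-Nd6 cannot be told from RNA of the opposite strand.

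**Figure D4:**
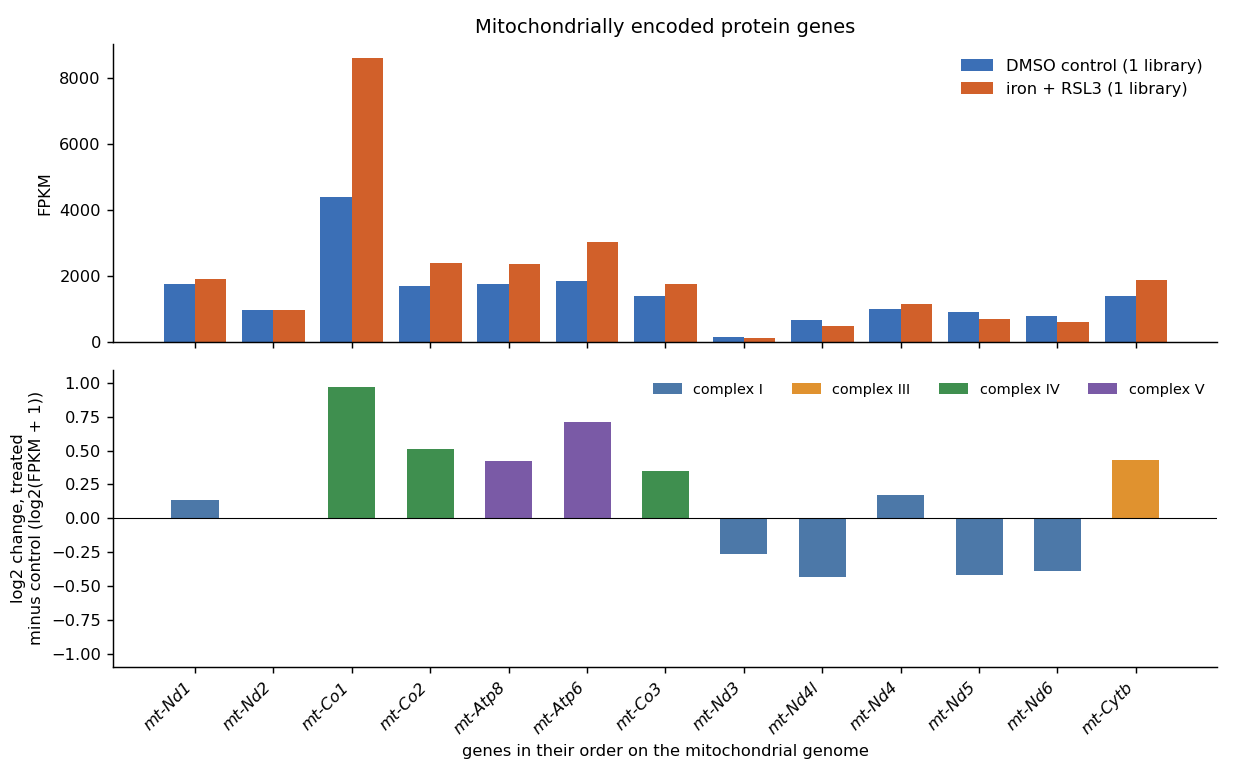
FPKM of the 13 mitochondrial protein genes in each library (upper bars) and their log2 change (treated minus control, lower bars, coloured by complex), in their order on the mitochondrial genome. The bars from mt-Co1 to mt-Co3 and of mt-Cytb lie above 0, mt-Co1 reaches 0.97, those of mt-Nd3, mt-Nd4l, mt-Nd5 and mt-Nd6 lie below 0, and mt-Nd2 has no visible bar.

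Some of these genes overlap, which limits how well their reads can be separated. The ends of 3 genes are shown from the GENCODE M21 transcripts (GRCm38, plus strand), with the bases shared with the next gene in capitals. They are chrM:7890-7969 for mt-Atp8, whose last 43 bases are also the start of mt-Atp6, chrM:10114-10173 for mt-Nd4l, whose last 7 bases open mt-Nd4, and chrM:13506-13565 for mt-Nd5, whose last 14 bases are antisense to the end of mt-Nd6.
mt-Atp8: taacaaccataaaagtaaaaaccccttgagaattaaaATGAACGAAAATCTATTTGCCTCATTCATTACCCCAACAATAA
mt-Nd4l: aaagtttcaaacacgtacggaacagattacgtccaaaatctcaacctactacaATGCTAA
mt-Nd5: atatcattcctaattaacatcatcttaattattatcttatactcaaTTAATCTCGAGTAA
In the first 2 cases the upstream and downstream genes are known to lie on one messenger RNA. Even so, their values differed: mt-Nd4l, of 297 bases, was 0.61 lower in log2 change than mt-Nd4, of 1378 bases. The change of mt-Atp8, of 204 bases, was 0.29 lower than that of mt-Atp6, of 681 bases. In both pairs the shorter gene had the lower value, so differences of this size also arose between reading frames of one messenger.

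Nuclear subunit genes are known targets of nuclear respiratory factor 1 (NRF1) and GA-binding protein (GABP), among others. RefSeq promoter windows of 300 bases (250 before and 50 after the start, GRCm38.p6) were matched for 70 of the 87 nuclear symbols. The NRF1 motif, GCGCA and GCGC with any 1 base between them on either strand, was in 22.9% of these windows and in 4.78% of all 27025. The letters CCGGAAG, for GABP, were in 21.4% and 9.12%. For YY1, AAGATGGCG was in 8.57% and 1.49%, and for SP1, GGGCGGGG was in 18.6% and 17.8%. No base before the start of these 70 genes lay in matches to motifs of different factors. The medians that follow leave out Atp5o, at 112.6 and 103.1 FPKM (-0.13). Its promoter was matched to the second row of that name, which is listed at 0. Measured members with the NRF1 letters had a median change of -0.17 (n = 15) and those without it one of -0.04 (n = 51). For GABP the medians were 0.05 (n = 15) and -0.14 (n = 51). For YY1 they were -0.16 (n = 6) and -0.02 (n = 60), and for SP1, whose letters were about as common in all promoters, -0.17 (n = 13) and -0.03 (n = 53).

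Some subunits with values on opposite sides of 0 carried the same letters, but the complexes differed in how often. The NRF1 letters were in the windows of 7 of 32 measured complex I genes, 2 of 3 of complex II and 1 of 5 of complex III. They were in 1 of 11 of complex IV, namely Cox6a1, and in 4 of 14 of complex V. For GABP the counts were 4 of 32, 2 of 3, 2 of 5, 3 of 11 and 4 of 14. Whether the letters go with the direction of change was not tested. The 250 bases before the start are shown for 2 complex II genes, which were lower, and for 1 gene each of complexes IV and V, which were slightly higher, all on the minus strand, with the motif matches in capitals. They are chr13:74350241-74350490 for Sdha, chr9:50603850-50604099 for Sdhd, chr5:115348959-115349208 for Cox6a1 and chr11:115419920-115420169 for Atp5h, a peripheral stalk subunit of ATP synthase.
Sdha: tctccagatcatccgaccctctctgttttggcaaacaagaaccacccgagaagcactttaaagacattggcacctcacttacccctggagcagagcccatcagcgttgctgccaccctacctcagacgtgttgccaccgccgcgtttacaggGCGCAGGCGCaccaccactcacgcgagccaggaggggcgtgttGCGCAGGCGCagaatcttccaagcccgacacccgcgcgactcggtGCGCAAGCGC
Sdhd: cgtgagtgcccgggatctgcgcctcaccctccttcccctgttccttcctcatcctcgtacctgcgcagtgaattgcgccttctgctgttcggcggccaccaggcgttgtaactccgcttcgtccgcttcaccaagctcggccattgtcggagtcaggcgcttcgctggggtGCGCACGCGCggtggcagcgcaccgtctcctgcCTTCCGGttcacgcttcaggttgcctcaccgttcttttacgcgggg
Cox6a1: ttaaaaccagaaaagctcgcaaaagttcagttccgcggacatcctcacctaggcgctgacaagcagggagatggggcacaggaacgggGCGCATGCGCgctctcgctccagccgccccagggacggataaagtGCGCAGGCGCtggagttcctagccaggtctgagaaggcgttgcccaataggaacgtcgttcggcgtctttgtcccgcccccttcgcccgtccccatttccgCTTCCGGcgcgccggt
Atp5h: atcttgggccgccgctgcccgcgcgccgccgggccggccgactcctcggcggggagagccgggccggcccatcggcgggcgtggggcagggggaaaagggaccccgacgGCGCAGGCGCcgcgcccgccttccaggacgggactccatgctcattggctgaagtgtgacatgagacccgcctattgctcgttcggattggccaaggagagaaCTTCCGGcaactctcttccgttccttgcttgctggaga
Sdha held 3 NRF1 matches and no GABP match, Cox6a1 held 2 and 1, and Sdhd and Atp5h held 1 of each. Atp5h was at 104.0 and 121.0 FPKM (0.22). A match is a run of letters, not a measured binding site.

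Many genes whose products assemble the complexes were lower in the treated library. Of 46 measured assembly factors, 42 had a change below 0 (38 after centring), beside 74.3% of all measured genes, 11 were at least 2-fold lower and none was 2-fold higher, with a median of -0.59. That is 23.9% lower, beside 11.8% of all measured genes and 0 of 82 nuclear subunits. Assembly factors were weaker transcripts than nuclear subunits (medians of 10.2 and 46.3 FPKM in the control). The factors lie in a range of abundance where other genes were lower too. Set against genes of the same abundance decile, their median was -0.08, and 1 of 46 was 2-fold lower, beside 243 of all 11771 measured genes. After centring, 4 of the 11 were still past 2-fold. Their summed FPKM was 0.124 times that of the nuclear subunits in the control and 0.0925 times in the treated library.

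Atpaf1, which helps to build the catalytic head of ATP synthase, was at 4.21 FPKM with DMSO and 0.74 FPKM with iron and RSL3 (-1.58). Tmem186 and Acad9, which take part in building the membrane arm of complex I, were at 6.31 and 1.70 FPKM (-1.44) and at 9.90 and 3.16 FPKM (-1.39). The haem A synthesis genes Cox10 and Cox15, named after their values were seen, were at 7.35 and 3.16 FPKM (-1.01) and at 6.22 and 2.34 FPKM (-1.11), and both were under 2-fold after centring. Other complex IV factors, also named after their values were seen, were not lower on the deposited scale: Cox17, a copper chaperone, was at 15.7 and 19.4 FPKM (0.29) and Cox14 had a change of 0.02.

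Upkeep of mitochondrial DNA and RNA had values in both directions, most of them below 0. Of 31 measured genes, 26 were below 0 (24 after centring), beside 74.3% of all measured genes. Of the same 31, 7 were at least 2-fold lower and 1 was 2-fold higher, beside 11.8% and 4.25% of all measured genes, with a median of -0.49. Against genes of like abundance the median was -0.08, with 1 of 31 at least 2-fold lower and 2 higher. Of all 11771 measured genes, 243 and 909 were so. Ssbp1, which coats single-stranded mitochondrial DNA, was at 20.4 and 5.67 FPKM (-1.68). Mterf1a, a mitochondrial transcription terminator, was at 2.51 and 0.34 FPKM (-1.39), and Tefm, an elongation factor of mitochondrial transcription, was at 6.12 and 1.73 FPKM (-1.38). Polg2, the accessory subunit of the mitochondrial DNA polymerase, stood out at 1.48 FPKM with DMSO and 9.63 FPKM with iron and RSL3, 6.50 times as high (2.10). Its catalytic partner Polg was at 9.41 and 4.59 FPKM (-0.90), so the 2 subunits went in opposite directions. The genes of mitochondrial transcription were not alike either. Tfam, which packages the mitochondrial genome and starts its transcription, was at 9.02 and 4.28 FPKM (-0.93), and the polymerase gene Polrmt was at 9.95 and 3.31 FPKM (-1.34). Tfb2m, which opens the promoter with that polymerase, was at 7.48 and 10.5 FPKM (0.44), and Twnk, the mitochondrial DNA helicase, and Supv3l1, an RNA helicase, had changes of 0.48 and 0.35.

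Transcriptional regulators of these genes stayed within 2-fold. Among 11 measured, the median was -0.19 (0.01 after centring). The most abundant by the mean of both libraries were Ppard, a nuclear receptor gene, at 15.8 and 28.7 FPKM (0.83, or 1.04 and so past 2-fold after centring) and Yy1 at 16.1 and 24.9 FPKM (0.60). The NRF1 gene was at 9.61 and 7.09 FPKM (-0.39) and Gabpa, the DNA-binding subunit of GABP, at 20.1 and 14.4 FPKM (-0.46). The coactivator genes Ppargc1a and Ppargc1b stayed under 1 FPKM in both libraries, so no change in them could be read. Among 7 measured isoforms and modulators known from low oxygen, all were above 0 (5 with equal totals) and 2 were past 2-fold, beside 25.7% and 4.25% of all measured genes. Higd1a, a small protein that binds complex IV, was at 10.6 FPKM with DMSO and 56.3 FPKM with iron and RSL3 (2.31), and Bnip3, a mitophagy receptor, was at 33.7 and 186.3 FPKM (2.43). Of that list, the complex IV isoforms Cox4i2 and Ndufa4l2 did not share this size.

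**Figure D5:**
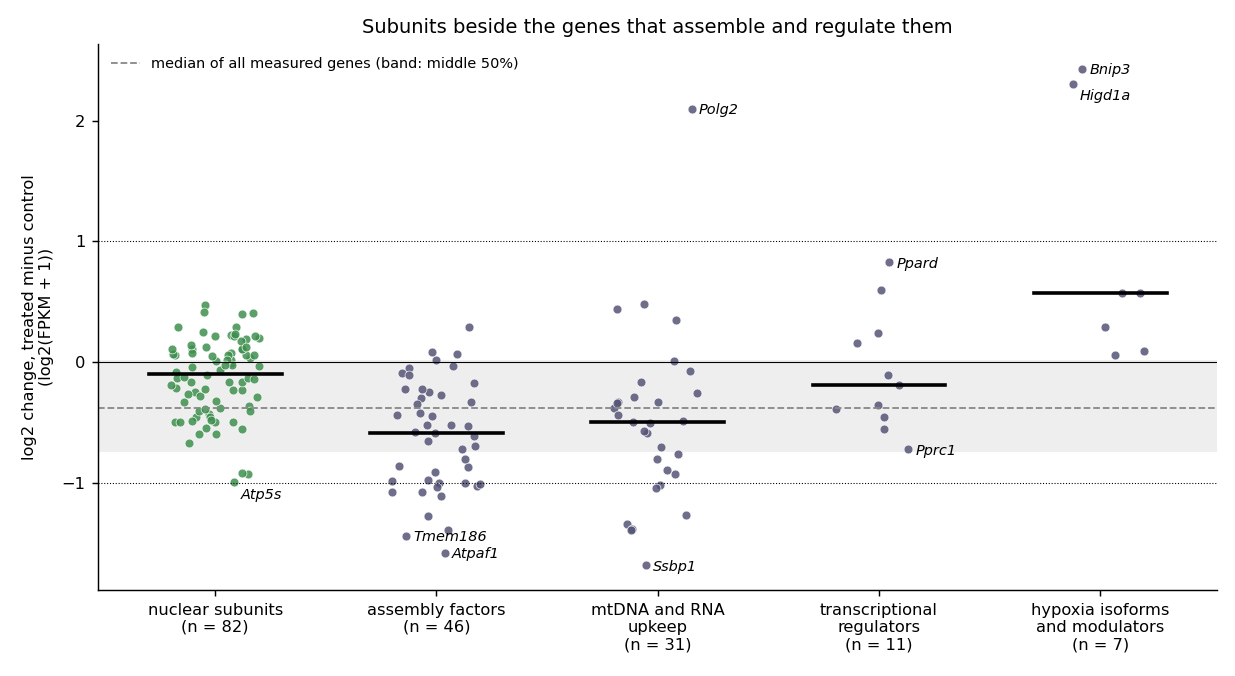
Log2 change (treated minus control, log2(FPKM + 1)) of the measured nuclear subunits and of 4 related lists, with the median of each as a black line, the median of all measured genes as a dashed line, their middle 50% as a grey band and 2-fold as dotted lines. The 82 subunits lie between -0.998 and 0.47, 11 of 46 assembly factors lie below -1, and Polg2, Higd1a and Bnip3 lie above 2.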

How the data were processed

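The authors deposited 1 table of FPKM values for 23466 rows and 2 libraries of poly(A) RNA, and per the submitters' processing notes, HISAT2, StringTie, DESeq2, edgeR and the build GRCm38 were used. Versions, settings and annotation are not given in the labels used here. Groups came from the sample titles and columns from the library names. FPKM is relative to each library, with totals of 385141 and 429250 FPKM. Annotation, lengths and coordinates are from GENCODE M21 (GRCm38), which held all 101 members. The length is that of the longest principal transcript. Low values lay partly on steps: in genes with 1 transcript, 31.2% and 37.0% were within 0.05 of a whole step, where an even spread gives 10%. Whole fragments were not recovered, and no interval was computed.

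The annotated spans of 19 measured members, introns included, overlap an oppositely oriented gene at 1 FPKM or more. Reads cannot be told apart where exons of both genes share bases, and whether they do was not checked. Named were, of each complex, the 3 most abundant nuclear subunits and the extremes, all isoforms and mitochondrial genes, and of each related list up to 3 genes per direction past 2-fold or its 2 most abundant (59 genes, of which some are not reported here). Others were named for their role after their values were seen. Of 33 upkeep genes, 31 were found. Members and lists were chosen with earlier results of these data known. Calculations (Python 3.11.15, pandas 2.3.3) were tested on simulated data.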

Additional observations from a re-analysis of the deposited data

How the results depend on the processing

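With 1 library per condition no replicate could be left out. No paired analysis was possible because each condition has 1 library and no test was made. Centring on abundant genes turned the medians of all members (0.17), nuclear members (0.12), complex I (0.012) and complex V nuclear genes (0.19) and regulators (0.012) above 0, and equal totals turned that of complex IV nuclear genes to -0.015. Set against genes of like length, the same medians were 0.14, 0.12, 0.024, 0.12 and 0.21. Against genes of like abundance, an alternative chosen after seeing the data, those of all members, nuclear members, complex I nuclear genes and regulators were 0.074, 0.070, 0.073 and 0.24. After centring, 1 member was 2-fold higher (1 of the mitochondrial complex IV genes), 1 regulator was higher and 4 assembly factors were lower. With equal totals 3 members were lower, all nuclear (1 each of complexes I, II and V). A pseudocount of 0.1 FPKM, and equal totals without mitochondrial and top genes, each gave 1 lower, in complex V. At 1.5-fold, 2 members were higher (both mitochondrial, 1 each of complexes IV and V) and 6 lower (all nuclear, with 2, 2, 1 and 1 of complexes I, II, III and V), as were 23 assembly factors and 13 upkeep genes, and regulators had 2 higher and 1 lower. The other 315 values for sets kept their side of 0, or stayed within 1.5 times as counts and shares. Depth limits the weak isoforms: Cox4i2 and Cox6a2 lie near 1 FPKM or below.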

Other observations

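Subunits that hold a redox cofactor were grouped after their values had been seen, so the following is a description. The 12 nuclear subunits that bind or share a flavin, iron-sulfur cluster or haem (Ndufs1, Ndufs7, Ndufs8, Ndufv1, Ndufv2, Sdha, Sdhb, Sdhc, Sdhd, Uqcrfs1, Cyc1 and Cycs) had a median log2 change of -0.47, and 10 of them were lower in the treated library (9 after centring), a share not far from the 74.3% of all measured genes that were lower. They summed to 534.4 FPKM with DMSO and 393.6 FPKM with iron and RSL3, or 0.737 times. The other 70 measured nuclear members had a median of -0.03 and sums in a ratio of 0.999. Cofactor subunits have longer transcripts (median 1590 bases), and against genes of their own length their median was -0.16 and that of the others 0.15. The haem-binding genes of the mitochondrial genome, mt-Co1 and mt-Cytb, had changes of 0.97 and 0.43, and among the nuclear 12 Ndufs8 (0.21) and Cycs (0.13) were above 0 as well.

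Usmg5, a small ATP synthase subunit that the symbol rule does not take in, was at 58.9 and 64.5 FPKM (0.13). The second row named Atp5o, a longer annotated locus that overlaps the gene, was listed at 0 in both libraries.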
